A study of Mus musculus with 6 samples.

Results

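The 3 NR4A genes, 3 genes of the EGR family and 4 other early-response genes, 10 in all (*Egr1*, *Egr2*, *Egr3*, *Nr4a1*, *Nr4a2*, *Nr4a3*, *Ier2*, *Ier3*, *Btg2* and *Myc*), were followed in mouse lung after hemorrhagic shock (HS). They were taken by gene symbol from the 54532 genes of the deposited read counts. All 10 were found there and all 10 passed the filter on low counts, as did 16568 genes in total. RNA came from lung tissue of 3 GRdim/dim mice and 3 GR+/+ mice of a mixed 129/SvEv x C57BL/6 background, 10 to 16 weeks old, the GR+/+ mice being littermate controls. In GRdim/dim mice a germline point mutation of the glucocorticoid receptor gene impairs dimerization of the receptor, so the read count of that gene does not check the genotype labels. All 6 mice were sedated with ketamine and fentanyl, ventilated, bled to a mean arterial pressure of 35 mmHg for 1 h, re-transfused and resuscitated for 4 h with colloid and norepinephrine. No library of an animal without HS was analysed here, so the values compare the genotypes after HS and do not show what HS itself did. One poly(A)-captured library was made per lung, with 15687734 to 32082940 reads counted on genes. The GR+/+ mice were 2 females and 1 male and the GRdim/dim mice 1 female and 2 males, and the sex of single mice is not in the labels used here.

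Early-response genes, also called immediate-early genes, are transcribed within minutes of a stimulus from factors that are already in the cell, and their mRNAs are short-lived. Growth factors, stretch, low oxygen and calcium or cyclic AMP signals act on them through the serum response factor (SRF) and the cyclic AMP response element binding protein (CREB). EGR proteins are zinc finger transcription factors held in check by the NAB corepressors. NR4A proteins are orphan nuclear receptors whose activity depends on their amount, and in lung they are known from endothelium, macrophages and lymphocytes.

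The sequences upstream of *Nr4a1*, *Nr4a2*, *Nr4a3*, *Btg2* and *Egr2* are shown first, because they hold the letters that CREB and SRF are known to read. They were picked for these letters from the 6 members whose promoter windows were searched. *Ier2*, whose levels across libraries were like those of the NR4A genes, has no window here. They are RefSeq windows of GRCm38.p6, 5′ to 3′ and ending before the transcription start, in lower case. Capitals mark the core of the cyclic AMP response element (CRE), TGACG on either strand, and in *Egr2* also the CArG box of SRF. For *Nr4a3* the 98 bases that lie before the first annotated exon are printed.
Nr4a1, chr15:101266596-101266845, plus strand: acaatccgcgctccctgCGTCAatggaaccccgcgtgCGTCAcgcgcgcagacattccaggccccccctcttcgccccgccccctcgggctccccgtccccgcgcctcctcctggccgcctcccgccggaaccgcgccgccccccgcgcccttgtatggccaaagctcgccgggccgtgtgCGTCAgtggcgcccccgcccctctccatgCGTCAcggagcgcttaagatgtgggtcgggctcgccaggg
Nr4a2, chr2:57124004-57124253, minus strand: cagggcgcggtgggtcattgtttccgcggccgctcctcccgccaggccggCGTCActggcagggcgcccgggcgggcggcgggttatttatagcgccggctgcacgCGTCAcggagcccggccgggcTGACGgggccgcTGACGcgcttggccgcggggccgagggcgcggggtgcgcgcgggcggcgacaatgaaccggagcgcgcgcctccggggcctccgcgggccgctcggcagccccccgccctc
Nr4a3, chr4:48045055-48045152, plus strand: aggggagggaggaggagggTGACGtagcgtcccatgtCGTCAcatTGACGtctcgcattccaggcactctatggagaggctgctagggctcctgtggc
Btg2, chr1:134079156-134079405, minus strand: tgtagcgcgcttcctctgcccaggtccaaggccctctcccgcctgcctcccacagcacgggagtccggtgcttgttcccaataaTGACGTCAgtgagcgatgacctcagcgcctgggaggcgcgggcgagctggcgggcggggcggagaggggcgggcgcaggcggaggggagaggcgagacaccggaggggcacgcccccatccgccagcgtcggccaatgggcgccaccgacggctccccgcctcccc
Egr2, chr10:67537619-67537868, plus strand: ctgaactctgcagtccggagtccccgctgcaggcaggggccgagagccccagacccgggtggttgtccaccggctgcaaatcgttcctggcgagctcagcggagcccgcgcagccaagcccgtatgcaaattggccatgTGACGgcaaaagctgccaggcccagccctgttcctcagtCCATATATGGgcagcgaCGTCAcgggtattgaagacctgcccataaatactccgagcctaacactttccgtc

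Of the 10 genes, 6 were searched for motifs (*Nr4a1*, *Nr4a2*, *Nr4a3*, *Btg2*, *Egr2* and *Ier3*). In their RefSeq promoter windows the 250 bases before the start site were read on both strands. *Egr1*, on chromosome 18, was left out of the search, and *Egr3*, *Ier2* and *Myc* had no window. The CRE core TGACG occurred 4 times before each of *Nr4a1*, *Nr4a2* and *Nr4a3*. Of 32841 windows of this length, 17.77% held it at least once and 0.137% at least 4 times. For none of the motifs were these windows matched to the members in their share of G and C, which is given below. The *Nr4a1* start used here lies 12577 bases inside the annotated gene. In *Nr4a1* the cores began 233, 213, 69 and 40 bases before the start, with an EGR site at 60 bases. In *Nr4a2* they began 200, 144, 123 and 111 bases before it, and in *Nr4a3* 231, 213, 205 and 147 bases before it, the last within the annotated exon. The *Btg2* window held the full palindrome TGACGTCA at 166 bases, which counts as a core on each strand and was present in 1.547% of windows. *Egr2* has 5 RefSeq start sites, and the window shown, whose start lies 2394 bases inside the gene, held a CArG box at 72 bases and a CRE core on each side of it. The windows of the starts 2395 and 2455 bases inside the gene overlap this window and hold the same letters. For the start 24 bases inside the gene neither motif was found, and for that at 2091 bases a CArG box without a CRE core. CArG boxes were present in 1.468% of windows. The *Ier3* window held neither motif but the letters CCAAT, at 244 and 175 bases. The share of G and C was 74.4% in *Nr4a1*, 80.0% in *Nr4a2*, 63.6% in *Nr4a3*, 73.2% in *Btg2*, 54.4% in *Ier3* and 54.0% to 71.2% in the 5 *Egr2* windows, against a median of 52.4% over all windows. The NR4A monomer site AAAGGTCA was found before none of the 6 genes. A match describes letters and does not show that a factor binds there.

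**Figure D1:**
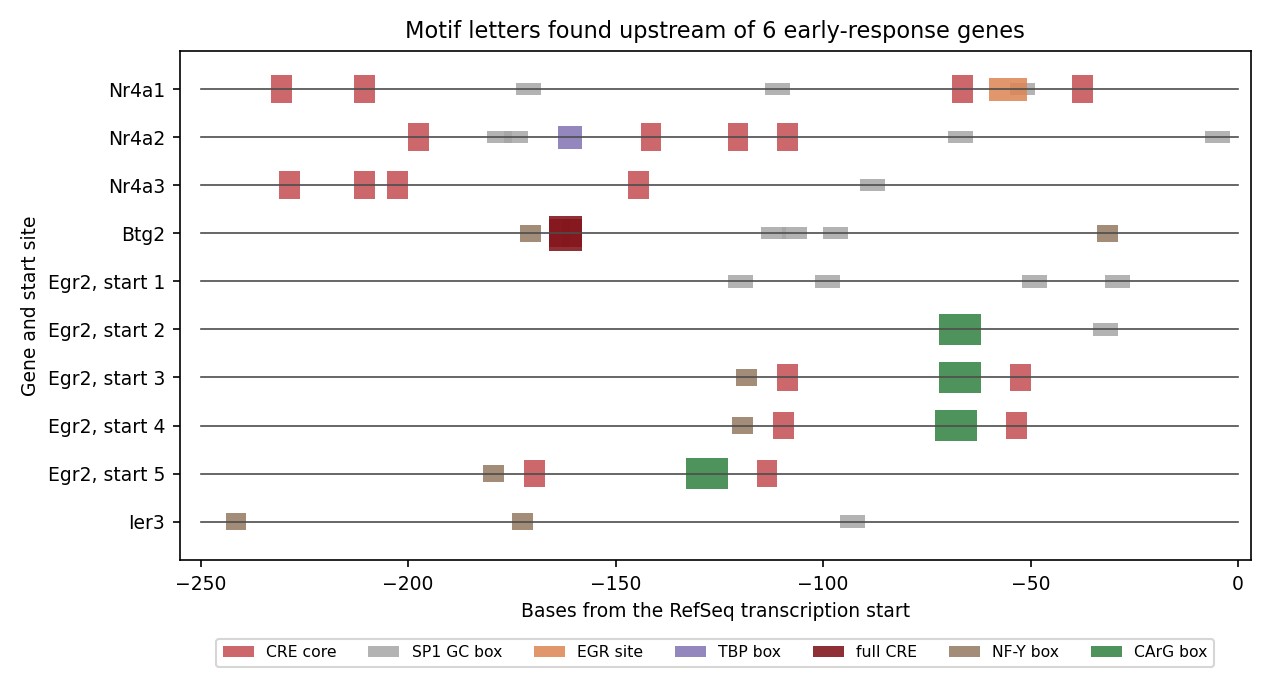
Position of motif letters in the 250 bases before each RefSeq start of the 6 genes whose windows were searched, in bases from the start on the horizontal axis, 1 row per start site. Red blocks (CRE core) occur 4 times before each NR4A gene, and green blocks (CArG box) before 4 of the 5 *Egr2* starts. Where the windows of neighbouring *Egr2* starts overlap, the green block is the same box. The NF-Y box stands for CCAAT, the TBP box for TATAAA and the SP1 GC box for GGGCGG.

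Levels are in CPM (the count divided by the library total in megareads, which was scaled by TMM), and the genotypes were compared with edgeR's quasi-likelihood test across all 16568 genes, with Benjamini-Hochberg adjustment. Differentially expressed genes (DEGs) had an adjusted p under 0.05 and a log2 fold change beyond 0.5. None of the 10 members was a DEG in edgeR, where 0.169% of all genes were. At an unadjusted p under 0.05 by edgeR, 6 members were higher in GRdim/dim lungs (*Egr2*, *Nr4a1*, *Nr4a2*, *Nr4a3*, *Ier2* and *Ier3*) against 4.91% of all genes, and 0 were lower against 4.68%. DESeq2 called 1 member, *Egr2*, and 1.7% of all genes. In 4 members (*Egr2*, *Nr4a1*, *Ier2* and *Ier3*) every GRdim/dim library lay above every GR+/+ library, which held for 7.77% of all genes, and in 0 members every GRdim/dim library lay below, against 7.05%. The median log2 fold change of the 10 members was 0.63, and that of all genes tested was 0.01. A two-sided exact permutation test on 3 lungs per genotype can reach 0.1 at the lowest, and it gave p = 0.1 for these 4 genes.

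**Figure D2:**
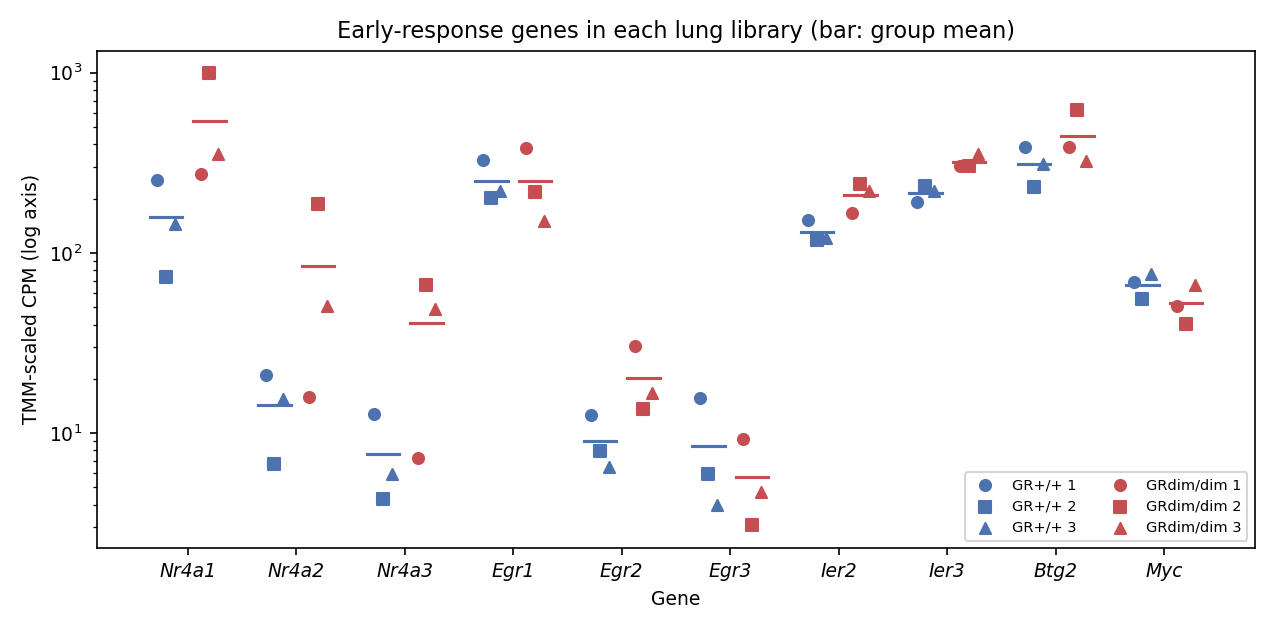
Level of the 10 genes in each of the 6 lung libraries, in TMM-scaled CPM on a log axis, with blue for GR+/+, red for GRdim/dim, 1 symbol per replicate number and a bar at each group mean. The red points of *Egr2*, *Nr4a1*, *Ier2* and *Ier3* all lie above the blue ones, while in *Nr4a2* and *Nr4a3* GRdim/dim replicate 1 lies among the blue points.

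Per length of transcript, the members spanned a wide range. In GR+/+ lungs, *Ier3* had the highest level at 190.5 ± 19.4 CPM per kb (SD, n = 3), followed by *Btg2* at 113 ± 27.9, *Ier2* at 85.5 ± 12.7, *Egr1* at 55.7 ± 15.2, *Nr4a1* at 44.8 ± 26.1 and *Myc* at 24.5 ± 3.91 CPM per kb. Far below lay *Nr4a2* at 3.54 ± 1.76, *Egr2* at 2.66 ± 0.94, *Egr3* at 1.93 ± 1.41 and *Nr4a3* at 1.27 ± 0.74 CPM per kb. The 6 upper and the 4 lower genes were separated by more than their spread. *Btg2* and *Ier2*, *Egr1* and *Nr4a1*, *Nr4a1* and *Myc*, and each neighbouring pair of the 4 lower genes differed by less than the larger of their SDs. In GRdim/dim lungs *Ier3* again led, at 284 ± 25.8 CPM per kb, and *Egr3* was last at 1.29 ± 0.72. *Nr4a1* stood at 154 ± 112 CPM per kb there and could not be placed among *Btg2* (162 ± 57.4), *Ier2* (138 ± 25.3) and *Egr1* (55.9 ± 26.8), because of its spread.

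*Nr4a1* encodes Nur77, the NR4A receptor best known from T cell activation and from the vessel wall (ENSMUSG00000023034, chromosome 15 of GRCm38 from 101254269 to 101274795, plus strand). It was measured at 255, 73.1 and 144 CPM in GR+/+ replicates 1, 2 and 3 and at 275, 992 and 353 CPM in GRdim/dim replicates 1, 2 and 3. The groups did not overlap, but GRdim/dim replicate 1 lay close to GR+/+ replicate 1, and GRdim/dim replicate 2 stood far above all others. The log2 fold change was 1.78, a 3.43-fold higher fitted level, with a standard error of 0.57 (edgeR adjusted p = 0.374). Without GRdim/dim replicate 2 it was 1.0.

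*Nr4a2* encodes Nurr1, the receptor needed for dopaminergic neurons and also induced in macrophages (ENSMUSG00000026826, chromosome 2 of GRCm38 from 57106830 to 57124003, minus strand). Its level was 20.9, 6.71 and 15.5 CPM in GR+/+ lungs and 15.7, 186 and 50.4 CPM in GRdim/dim lungs. Here GRdim/dim replicate 1 lay between GR+/+ replicates 1 and 3, so the groups overlapped, while the other GRdim/dim libraries were above every GR+/+ library. Its log2 fold change was 2.55 with a standard error of 0.97 (edgeR adjusted p = 0.494), and 1.2 without GRdim/dim replicate 2.

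*Nr4a3* encodes NOR1, the third of the family (ENSMUSG00000028341, chromosome 4 of GRCm38 from 48045153 to 48086447, plus strand). Its CPM values were 12.7, 4.32 and 5.91 in GR+/+ lungs and 7.22, 65.9 and 49.1 in GRdim/dim lungs. As for *Nr4a2*, GRdim/dim replicate 1 lay among the GR+/+ libraries and replicates 2 and 3 well above them. For *Nr4a3* the log2 fold change was 2.42 with a standard error of 0.77 (edgeR adjusted p = 0.386). It was 1.89 without GRdim/dim replicate 2, and 2.93 without GRdim/dim replicate 1, the only library whose omission made a member a DEG in edgeR (adjusted p = 0.0370).

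Summed over the 3 receptors, the NR4A level was 288, 84.1 and 166 CPM in GR+/+ lungs and 298, 1244 and 453 CPM in GRdim/dim lungs. The spread between mice of one genotype was itself large. The within-genotype SD of log2 CPM was 1.39 for *Nr4a2*, 1.34 for *Nr4a3* and 0.94 for *Nr4a1*, larger than in 99.5%, 99.4% and 96.9% of all genes tested. In GRdim/dim lungs the highest library exceeded the lowest 11.8-fold for *Nr4a2*, 9.12-fold for *Nr4a3* and 3.61-fold for *Nr4a1*. Within GR+/+ lungs these ratios were 3.11, 2.93 and 3.48, with replicate 2 lowest for all 3 genes. GRdim/dim replicate 2, the highest for each receptor, had 24444604 counts in total, GRdim/dim replicate 3, the second highest, had 15687734, and GR+/+ replicate 2, the lowest, had 16361747. The part of depth in this spread was not tested.

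Summed levels of T cell, NK cell and platelet markers did not overlap between the genotypes. Gene by gene, every GRdim/dim library lay above every GR+/+ library for 3 T cell, 2 NK cell, 1 B cell and 1 platelet marker, against 7.77% of all genes. Summed over 5 markers each, T cell markers reached 10 to 24.3 CPM in GR+/+ and 28.5 to 35.5 CPM in GRdim/dim lungs, NK cell markers 5.86 to 17.4 and 21.3 to 32.1 CPM, and B cell markers 22.9 to 54.7 and 54.1 to 84.1 CPM. GRdim/dim replicate 2, which led the NR4A genes, also had the highest sum of each of these 3 lists. All 15 of these markers were measured, none was at 0 in every library, and edgeR called 0 of them, with 3 of 5 higher at an unadjusted p under 0.05 in each list, against 4.91% of all genes. Without GRdim/dim replicate 2 these counts were 3 for T cell, 0 for NK cell and 0 for B cell markers. DESeq2 called 1 of the 15, the T cell marker *Trac* (adjusted p = 0.0253). The 5 platelet markers summed to 15.8 to 21.1 CPM in GR+/+ and 24.9 to 35 CPM in GRdim/dim lungs, with Gp1bb at 0 throughout. Of these markers, *Pf4* did not overlap (log2 fold change 1.32, DESeq2 adjusted p = 0.0148). *Ppbp*, *Itga2b* and *Gp9* overlapped, with log2 fold changes of 0.40, 0.39 and -0.12. GR+/+ replicate 2, lowest for the NR4A genes, had the highest T, NK and B cell marker sums of its genotype. Sums of 8 macrophage and monocyte markers overlapped, at 532 to 610 CPM in GR+/+ and 378 to 560 CPM in GRdim/dim lungs (467 in replicate 2). Without overlap, 1 of the 8 was higher (*Ly6c2*) and 1 lower (*Chil3*), against 7.77% and 7.05% of all genes. Endothelial sums (5 markers) also overlapped, at 1944 to 2977 and 2419 to 2718 CPM, with 4 log2 fold changes negative and 1 positive (*Cldn5*, without overlap). The part of these cells in the NR4A values was not tested, and in bulk lung tissue a change in the number of cells of a type and a change in RNA per cell cannot be told apart. Alveolar type 2 markers, by which the tissue can be recognised, summed to 14961 to 23802 CPM in all 6 libraries, with overlapping groups.

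**Figure D3:**
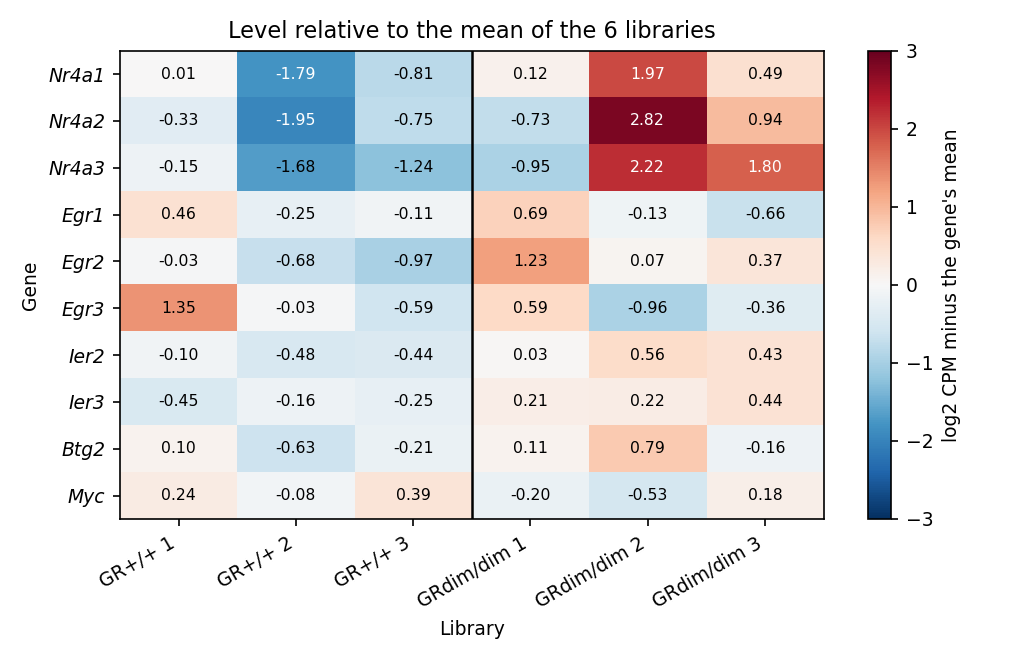
Level of each gene in each library relative to the gene's mean over the 6 libraries, as a difference of log2 CPM (red above, blue below the mean), with GR+/+ left and GRdim/dim right of the line. The NR4A genes reach 1.97 to 2.82 in GRdim/dim replicate 2, where *Egr1* is at -0.13 and *Egr3* at -0.96, while GRdim/dim replicate 1 is the highest library for *Egr1* and *Egr2*.

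The EGR genes did not follow the NR4A pattern and differed among themselves. *Egr2*, also known as Krox20, is needed for myelin formation and restrains T cell activation (ENSMUSG00000037868, chromosome 10 of GRCm38 from 67535475 to 67542188, plus strand). It was measured at 12.6, 7.97 and 6.51 CPM in GR+/+ lungs and at 30.4, 13.5 and 16.7 CPM in GRdim/dim lungs. All GRdim/dim libraries were above all GR+/+ libraries, the nearest pair differing by 13.5 to 12.6 CPM, and replicate 1, not replicate 2, was the highest. The fitted difference was a log2 fold change of 1.16 with a standard error of 0.35 (edgeR adjusted p = 0.319; DESeq2 adjusted p = 0.0443). DESeq2 also called it without GR+/+ replicate 1 and without GRdim/dim replicate 2, but not without any of the other 4 libraries. Without GRdim/dim replicate 1 the log2 fold change was 0.75. That library also had the highest sum of 7 neutrophil markers, at 1054 CPM against 240 to 453 CPM in GR+/+ lungs and 336 and 472 CPM in the other GRdim/dim lungs, and the part of neutrophils in the *Egr2* value was not tested.

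*Egr1*, the family member most often used as a sign of acute stimulation (ENSMUSG00000038418, chromosome 18 of GRCm38 from 34859823 to 34864984, plus strand), was measured at 328, 201 and 221 CPM in GR+/+ and at 384, 217 and 151 CPM in GRdim/dim lungs. The group means were 249.9 ± 68.1 and 251 ± 120.3 CPM (SD, n = 3), and the highest and the lowest library were both GRdim/dim. The log2 fold change was 0.00 with a standard error of 0.32 (edgeR adjusted p = 0.999), and it ranged from -0.44 to 0.27 with one library omitted at a time.

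*Egr3*, which acts with *Egr2* in lymphocytes (ENSMUSG00000033730, chromosome 14 of GRCm38 from 70077203 to 70082614, plus strand), was measured at 15.6, 5.94 and 4.0 CPM in GR+/+ and at 9.22, 3.07 and 4.71 CPM in GRdim/dim lungs. The groups overlapped, and replicate 1 was the highest of each genotype. Its fitted log2 fold change was -0.58 with a standard error of 0.54 (edgeR adjusted p = 0.811), and 0.20 without GR+/+ replicate 1. *Egr4*, the fourth gene of the family, had 0 to 6 counts per library and was not tested. Summed over *Egr1*, *Egr2* and *Egr3*, the EGR level was 356, 215 and 232 CPM in GR+/+ and 424, 234 and 172 CPM in GRdim/dim lungs.

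*Ier2* and *Ier3*, whose groups also did not overlap, showed smaller and steadier differences. *Ier2* encodes a nuclear protein of the early growth factor response (ENSMUSG00000053560, chromosome 8 of GRCm38 from 84661331 to 84662852, minus strand). GR+/+ lungs had 152, 118 and 121 CPM and GRdim/dim lungs 167, 241 and 221 CPM. GRdim/dim replicate 1 was again the closest to the GR+/+ libraries. On the log2 scale the fold change was 0.69 with a standard error of 0.19 (edgeR adjusted p = 0.286), and 0.58 to 0.83 with each library left out.

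*Ier3*, also known as IEX-1, encodes a regulator of cell survival downstream of NF-κB and growth factors (ENSMUSG00000003541, chromosome 17 of GRCm38 from 35821684 to 35822923, plus strand). Levels were 192, 235 and 220 CPM in GR+/+ and 303, 305 and 355 CPM in GRdim/dim lungs. Replicates of each genotype lay close together, with the highest 1.23 and 1.17 times the lowest, and the within-genotype SD of log2 CPM, 0.14, was larger than in only 10% of all genes. A log2 fold change of 0.57, or 1.49-fold, with a standard error of 0.17, was fitted (edgeR adjusted p = 0.312). It was 0.50 to 0.65 with each library left out.

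*Btg2*, an antiproliferative gene that p53 can induce and whose protein recruits the CCR4-NOT deadenylase (ENSMUSG00000020423, chromosome 1 of GRCm38 from 134075170 to 134079120, minus strand), was measured at 386, 233 and 312 CPM in GR+/+ and at 387, 621 and 322 CPM in GRdim/dim lungs. The groups overlapped, and only GRdim/dim replicate 2 stood apart. The log2 fold change of 0.52 with a standard error of 0.27 (edgeR adjusted p = 0.601) was 0.19 without that library.

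*Myc*, the growth-promoting transcription factor (ENSMUSG00000022346, chromosome 15 of GRCm38 from 61985391 to 61990374, plus strand), was measured at 68.6, 55.2 and 76.1 CPM in GR+/+ and at 50.8, 40.3 and 65.9 CPM in GRdim/dim lungs. The groups overlapped, and GRdim/dim replicate 2, highest for the NR4A genes, was the lowest library for *Myc*. The log2 fold change was -0.35 with a standard error of 0.21 (edgeR adjusted p = 0.669), and it stayed between -0.55 and -0.19 with each library left out.

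**Figure D4:**
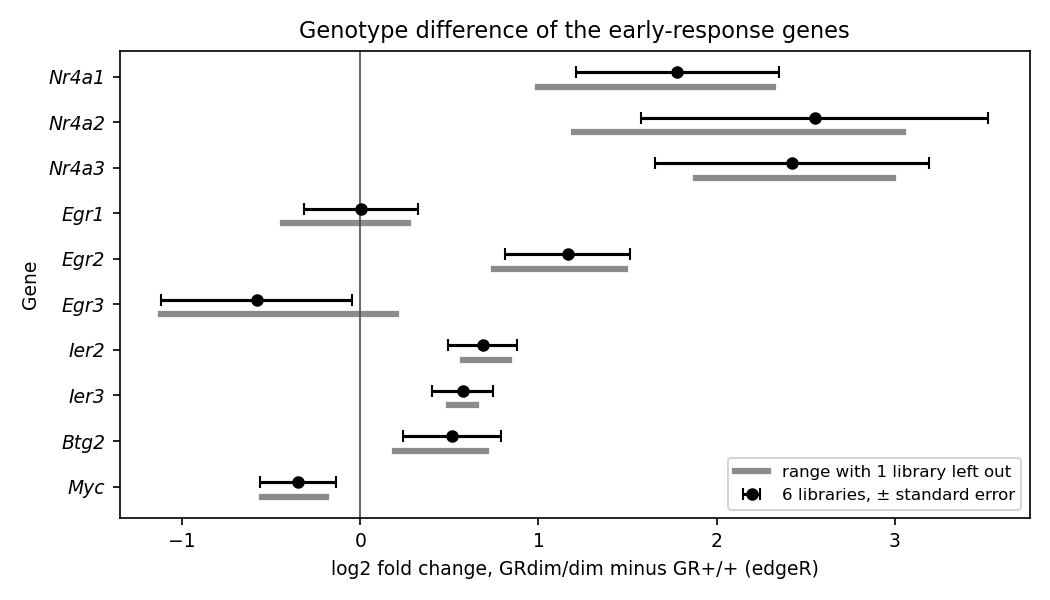
Log2 fold change of each gene between GRdim/dim and GR+/+ lungs from edgeR (black point, bar: standard error) and the range of that value with any of the 6 libraries omitted (grey). The ranges of *Egr1* and *Egr3* cross 0, and those of *Nr4a1* and *Nr4a2* reach down to 1.0 and 1.2.

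Across the 6 libraries, the levels of the members had different patterns. These correlations describe 6 points that share 2 genotypes and the scaling of each library, and no test was made. *Nr4a1* and *Nr4a2* were most like each other (Pearson r of log2 CPM = 0.953), *Nr4a3* and *Ier2* likewise (0.948), and *Btg2* was most like *Nr4a1* (0.936). *Ier3* was most like *Ier2* at 0.753, and *Egr2* was most like *Ier3* at 0.603. *Egr1* and *Egr3* were most like each other (0.705) and had correlations between -0.49 and 0.01 with the 3 NR4A genes. *Myc* had no close companion, the highest value being 0.297 with *Egr3*. Outside the members, the tested genes whose levels were most like the mean pattern of the 10 members were *Snx18* (0.995), *Ccnb1* (0.990), *Bdkrb2* (0.980), *Ncf1* (0.975) and *Susd1* (0.973). *Bdkrb2*, the bradykinin B2 receptor gene, was measured at 30.5, 19.3 and 21.1 CPM in GR+/+ and at 38.0, 51.0 and 39.3 CPM in GRdim/dim lungs. *Apold1*, an early-response gene of endothelium, was closest to the mean of the 3 NR4A genes (0.989), a comparison chosen after their values had been seen. Each of these is the highest, or among the 5 highest, of 16568 genes over only 6 points.

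The related gene lists were read in the same fit, and edgeR called 0 genes in each of them. Of all genes, 4.91% were higher and 4.68% lower at an unadjusted p under 0.05 by edgeR. Groups did not overlap in 7.77% (higher) and 7.05% (lower) of all genes. The 8 genes of the AP-1 list, which includes *Atf3*, had a median log2 fold change of 0.53, which was 0.02 without GRdim/dim replicate 2, with 1 higher and 1 lower at an unadjusted p under 0.05 by edgeR. These were *Fosl2*, at 319, 175 and 290 CPM in GR+/+ and 439, 672 and 653 CPM in GRdim/dim lungs (log2 fold change 1.17, edgeR adjusted p = 0.167, DESeq2 adjusted p = 0.00165), and *Jun*, at 652, 439 and 437 CPM against 230, 350 and 239 CPM (log2 fold change -0.90, edgeR adjusted p = 0.251, DESeq2 adjusted p = 0.0221). DESeq2 called both, in opposite directions. In both the groups did not overlap, *Fosl2* being higher and *Jun* lower. Of 38 other early-response genes, 37 were tested, with a median of 0.32. At an unadjusted p under 0.05 by edgeR, 7 were higher and 3 lower, and 6 and 1 without GRdim/dim replicate 2. Over all genes these counts were 814 higher and 776 lower, and 699 and 778 without that library. Of the 37 genes, 4 were higher and 4 lower without overlap.

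*Rgs2*, an inhibitor of G protein signalling that cyclic AMP induces, had the largest positive log2 fold change of those 37 genes. It was measured at 91.2, 88.1 and 78.8 CPM in GR+/+ and at 207, 355 and 179 CPM in GRdim/dim lungs, groups that lay far apart (log2 fold change 1.52, standard error 0.25, edgeR adjusted p = 0.0546, DESeq2 adjusted p = 3.6e-06). *Arc*, an early-response gene best known from synapses, had the most negative value, -1.19, also without overlap, at levels of 0.755 to 3.48 CPM (edgeR adjusted p = 0.374).

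Among 12 regulators of the SRF and CREB pathways the median log2 fold change was 0.02. At an unadjusted p under 0.05 by edgeR, 1 was higher and 1 lower, against 4.91% and 4.68% of all genes. *Srf* itself had a log2 fold change of -0.09 (standard error 0.17). *Crem*, whose gene includes the cyclic AMP-inducible repressor ICER, was measured at 22.0, 15.8 and 21.3 CPM in GR+/+ and at 37.3, 66.9 and 57.5 CPM in GRdim/dim lungs. The groups did not overlap, and replicates 2 and 3 were the highest, as for the NR4A genes (log2 fold change 1.45, standard error 0.24, edgeR adjusted p = 0.0594, DESeq2 adjusted p = 1.71e-05). *Elk1*, an SRF partner, had the most negative value of that list, -0.70 (edgeR adjusted p = 0.342), also without overlap. In the list 2 genes were higher and 1 was lower without overlap, against 7.77% and 7.05% of all genes. The corepressors *Nab1* and *Nab2* had log2 fold changes of -0.21 and -0.20, and the NR4A partners *Rxra* and *Rxrb* of -0.25 and -0.20, all without a call in either tool. *Rxrg* was too low to test, and edgeR gave none of the other 4 an unadjusted p under 0.05. Of these 4, only *Rxra* did not overlap, being lower in GRdim/dim lungs.

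Of 13 MYC network genes, 12 were tested, with a median log2 fold change of -0.08. At an unadjusted p under 0.05 by edgeR, 1 was higher and 2 were lower, against 4.91% and 4.68% of all genes. *Mxd1*, an antagonist of MYC that pairs with MAX, was measured at 110.0, 87.5 and 78.0 CPM in GR+/+ and at 208, 187 and 169 CPM in GRdim/dim lungs, without overlap (log2 fold change 1.04, standard error 0.18, edgeR adjusted p = 0.0693, DESeq2 adjusted p = 0.000366). *Max* had a log2 fold change of 0.01. *Mycn* was the most negative at -1.55 (edgeR adjusted p = 0.251), from 2.03 to 4.08 CPM in GR+/+ and 0.872 to 1.03 CPM in GRdim/dim lungs, also without overlap. In the network list 1 gene was higher and 2 were lower without overlap, against 7.77% and 7.05% of all genes. The 20 MYC target genes had a median of 0.09, between -0.20 for *Ncl* and 0.46 for *Odc1*. Of these, 1 was higher and 0 were lower at an unadjusted p under 0.05 by edgeR, against the same shares of all genes.

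The 11 genes of the BTG and TOB family and the CCR4-NOT complex had a median log2 fold change of 0.24, between -0.26 for *Cnot3* and 0.39 for *Tob2*. At an unadjusted p under 0.05 by edgeR, 1 was higher and 0 were lower, against 4.91% and 4.68% of all genes. *Tob2* was highest in GRdim/dim replicate 2 (213 CPM against 76.9 to 102 CPM in the other 5 libraries), as *Btg2* was. The 16 p53 target genes had a median of -0.11, with 12 of them negative, from 0.18 for *Cdkn1a* to -0.56 for *Pmaip1*. For these edgeR found 0 higher and 1 lower at an unadjusted p under 0.05, against the same shares of all genes.

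**Figure D5:**
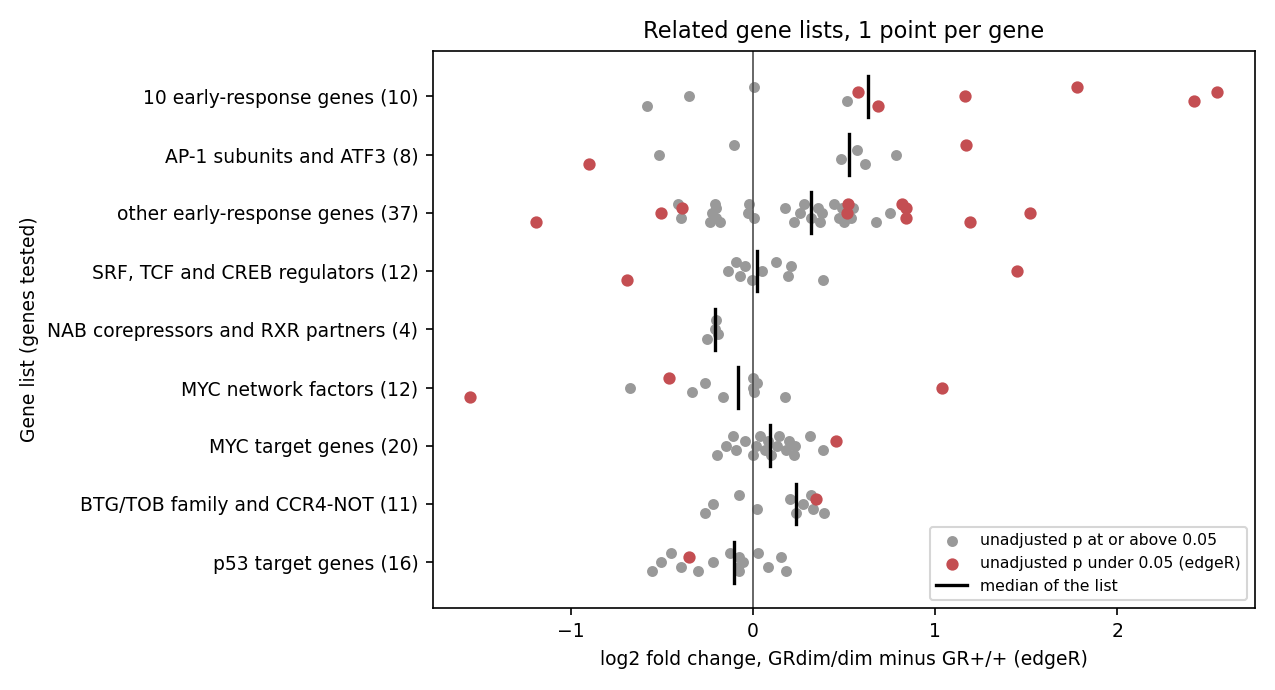
Log2 fold change between GRdim/dim and GR+/+ lungs from edgeR, 1 point per gene, for the 10 early-response genes and 8 related lists, with red for an unadjusted p under 0.05 and a black line at each list's median. The median is 0.63 for the 10 genes, 0.53 for AP-1 subunits with *Atf3*, and between -0.21 and 0.32 for the other lists.

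In the GENCODE M21 annotation of GRCm38, most of the 10 genes are compact, while the NR4A genes lie nearer to the median gene. The members' median span was 5287 bases and the median number of exons 2, against 24333 bases and 9 exons over the 14571 protein-coding genes tested. *Ier3* spans 1240 bases, and 0.64% of these genes were as short or shorter. *Nr4a1*, *Nr4a2* and *Nr4a3* span 20527, 17174 and 41295 bases with 8 exons each, and *Nr4a3* was the only member above the median span. The pentamer ATTTA, the core of AU-rich elements that mark short-lived mRNAs, occurred 2.39 times per kb of 3′ untranslated region in the median member and 1.28 times in the median gene. The density was highest in *Ier3* (8.16 per kb), *Nr4a1* (5.53 per kb) and *Myc* (4.53 per kb), and 0 in *Ier2*. As counts these are 5, 3 and 2 pentamers, in untranslated regions of 613, 543 and 442 bases. As many or more were held by 20.17%, 35.24% and 48.19% of genes whose region has at least 100 bases. No member overlapped another annotated gene in its exons. For each member the transcript with the longest coding part was cut into 31-base windows. At most 0.64% of them also occurred in another gene's transcripts.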

How the data were processed

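Per the labels and the methods of the study, total RNA was isolated from lung tissue of 3 mice per genotype with Trizol, captured by poly(A) and sequenced by a company. Raw counts of reads on each gene, neither normalized nor pooled, were deposited by the authors for each of the 6 libraries, and their processing notes name the build mm10 (GRCm38). The aligner, the counting tool and the use of strand are not given in the sources used here. Each mouse went through HS on a day of its own.

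Genotypes were compared across all genes by edgeR 4.0.16 under R 4.3.3 (scaling by TMM, filterByExpr, robust glmQLFit, glmQLFTest), without covariate, and with DESeq2 1.42.0, the tool of the study, as an alternative. The procedure was also run on simulated counts with 200 changed genes, whose outcome is not given here. The simulated spread followed the trend over all genes, not the larger spread of the NR4A genes. For log2 CPM a prior count of 2 was added. Counts of single members ran from 72 (*Nr4a3* in GR+/+ replicate 2) to 23881 (*Nr4a1* in GRdim/dim replicate 2). Counting error beside the spread between mice was not computed. Promoters came from RefSeq (GRCm38.p6) and gene structure from GENCODE M21, whose coordinates are those of the deposited counts for all 10 members.

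The genes named are the 10 members, the genes of each related list called by either tool or with its largest positive and negative log2 fold change, *Egr4*, *Nab1*, *Nab2*, *Max* and *Srf*, and the genes most like the members. The members and lists were chosen with earlier results of these data known. Alternatives were RLE scaling, no filter or at least 10 counts per library, DESeq2, a replicate block, a sex-linked covariate, no threshold on the fold change, CPM by library total, a prior count of 2 in the fold change, and omission of single libraries. DESeq2 with each library left out and the lists without GRdim/dim replicate 2 were added after the data had been seen.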

Additional observations from a re-analysis of the deposited data

How the results depend on the processing

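Between 0 and 3 of the 10 members were called, depending on the tool, the filter and the libraries. edgeR called 2 without a filter on low counts (*Egr2*, adjusted p = 0.00325, and *Ier2*, adjusted p = 0.0474), 0 or 1 with each library left out, and 0 with RLE scaling, with at least 10 counts in every library, with the sex-linked covariate and without a threshold on the fold change. DESeq2 called 1 on all libraries and 0 to 3 with each library left out, the 3 being *Nr4a2*, *Nr4a3* and *Ier2* without GRdim/dim replicate 1. Over all genes, the 28 DEGs of edgeR became 522 without a filter, 274 with DESeq2 and 4 to 22 with each library left out of edgeR. DESeq2 gave 182, 192 and 175 without GR+/+ replicates 1, 2 and 3, and 253, 241 and 384 without GRdim/dim replicates 1, 2 and 3. The 6 members at an unadjusted p under 0.05 became 3 to 7 in edgeR with each library left out (3 without GR+/+ replicate 3) and 3 to 8 in DESeq2 (3 without GR+/+ replicate 2). With the sex-linked covariate they became 7 in edgeR. In that fit the log2 fold change of *Egr3* was -1.05 (standard error 0.35) and that of *Egr2* 0.83 (standard error 0.29).

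The direction held for 8 members under every setting run. *Egr1* turned to -0.16 with the sex-linked covariate, to -0.12 without GR+/+ replicate 2 (-0.13 in DESeq2), to -0.076 without GR+/+ replicate 3 (-0.076 in DESeq2) and to -0.44 without GRdim/dim replicate 1 (-0.45 in DESeq2), and its values with one library left out of edgeR ran from -0.44 to 0.27. *Egr3* turned to 0.20 without GR+/+ replicate 1 (0.19 in DESeq2), within a range of -1.12 to 0.20. The cause was not tested. With the replicate block, *Egr1* was at -0.069, 34 genes and 0 members were called, and 3 members had an unadjusted p under 0.05. Libraries with the same number in their labels share no animal, and the labels state no pairing. Their deviations had correlations of 0.22, 0.04 and -0.05, and those of libraries with different numbers -0.27 to 0.19. Deviations from a mean of 3 libraries are not independent, so these values do not decide whether the numbers pair the libraries. Without GRdim/dim replicate 2, the genes at an unadjusted p under 0.05 went from 1 to 2 among MYC targets and from 1 to 0 among BTG, TOB and CCR4-NOT genes. Over all genes, those higher went from 814 to 699 and those lower from 776 to 778. With 3 lungs per genotype, 1 library can move the fold change of *Nr4a2* by more than 1 on the log2 scale.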
